A study of Mus musculus with 10 samples.

Results

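The genes described here encode the MHC class II presentation pathway. They were chosen as the probe sets of the array whose platform annotation names only 1 of 10 listed genes: H2-Aa, H2-Ab1, H2-Eb1, H2-Ea, H2-Oa, H2-Ob, H2-DMa, H2-DMb1, Cd74 and Ciita. By this rule 19 of the 34958 single-gene probe sets belonged to the pathway, and they stood for 9 of the 18194 genes measured. H2-DMb1 had no probe set of its own, because both probe sets that name it also name its neighbour H2-DMb2. The RNA came from jejunum, ileum, distal colon, spleen and liver of male ICR mice, an outbred stock, at 28 or 4 months of age. All mice ate the AIN-93 diet under specific-pathogen-free conditions and were housed singly. Those of 28 months had been bought at 8 months of age and those of 4 months at 2 months. RNA was extracted from the tissues of each mouse, and equal amounts were mixed: for each tissue a pool was made from 9 mice of the 28-month age and another from 6 of the 4-month age. Each pool was read on 1 array, so each of the 10 groups held 1 array and no animal was measured by itself. The gut samples were labelled as tissue, not as isolated epithelium, and so may hold muscle, stroma and lymphoid cells too.

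MHC class II molecules are pairs of an alpha and a beta chain that display peptides from engulfed or internal vesicles to CD4 T cells. B cells, dendritic cells and macrophages carry them at rest, and intestinal epithelial cells, mainly in the small intestine, can carry them as well. Newly made pairs are held by the invariant chain Cd74, whose last fragment is removed in endosomes by H2-DM, while H2-O, found mainly in B cells, restrains H2-DM. Ciita is a co-activator that switches class II genes on. It binds no DNA itself, and works through factors bound to a pair of promoter elements, the X box and the Y box.

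The promoter elements are shown because they are the sites through which Ciita acts. RefSeq promoter windows of build GRCm38.p6, from 250 bases before to 50 bases after each start, were read for 6 of the 10 listed genes. Any Cd74 window was left out by its chromosome before the search, so the counts of member windows do not cover it. The Y core was searched as TGATTGG and the X core as GNAAC, on both strands, with the X core starting 25 to 50 bases before the Y core; the cores do not overlap. The pair was found in 5 of the 7 windows of these 6 genes. The letters were chosen after these promoters had been read, so that count follows from the choice. Of all 32851 promoter windows of the same length 0.712% held the pair, and 7.82% the Y core. In the lines below the capitals mark the X core and then the Y core, 5′ to 3′ on the strand of the gene.
H2-Aa, chr17:34287859-34287912, minus strand: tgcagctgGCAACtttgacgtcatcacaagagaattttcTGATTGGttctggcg
H2-Eb1, chr17:34305768-34305820, plus strand: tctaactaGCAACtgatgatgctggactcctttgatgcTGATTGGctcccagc
H2-Oa, chr17:34092295-34092348, plus strand: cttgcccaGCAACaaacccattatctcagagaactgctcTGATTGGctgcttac
H2-Ob, chr17:34238810-34238860, plus strand: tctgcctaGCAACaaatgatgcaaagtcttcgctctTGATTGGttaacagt
H2-DMb1, chr17:34153089-34153142, plus strand: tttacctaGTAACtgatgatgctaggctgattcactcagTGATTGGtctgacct
The cores lay 28 to 31 bases apart from start to start, and the Y core began 45 to 63 bases before the gene's start. The related gene H2-Eb2, which is no member, held the pair 30 bases apart, with the Y core 102 bases before its start. H2-DMb2 held the Y core but no X core starting 25 to 50 bases before it. Both H2-DMa windows held no Y core on the strand of the gene and no pair on either strand. X cores by themselves were not counted, so this says only that the pair with these letters was not found there.

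The arrays differed little in scale. Signals below are in arbitrary units, after each array was scaled to a trimmed mean of 500, and a signal under 111 units, the median of all signals, is called below the floor. Factors were 2.42 to 2.57, 48.9% to 50.9% of probe sets lay above the floor, and the 2 arrays of a tissue correlated at r = 0.987 or more. A unit does not compare between probe sets, so levels are compared only within a gene. The labelled tissues carried their own markers, such as Alb in liver, Ms4a1 in spleen, Fabp6 in ileum and Hoxb13 in distal colon. In the ileum Lct, a lactase of the upper small intestine, gave 92.1 units at 28 months against 14054 units at 4 months, and in the jejunum 3600 against 12629 units. The part of these differences in the ileal and jejunal ratios was not tested. The 3 gut arrays of 28 months are titled differently from the other 7, and the labels do not say whether they were processed apart, so such a difference cannot be told apart from age in the gut.

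The first comparison was between the tissues. By the brightest probe set of each gene, the spleen had the highest signal of all 9 genes. In the mean of both ages the liver had the lowest, and for 8 of the 9 it lay below every gut array. The exception was H2-Ea, which at 4 months gave 1049 units in liver and 941 units in jejunum. Probe sets of a gene did not all keep this order. A second H2-Ea probe set gave 252 and 299 units in liver at 28 and 4 months, below every gut array. The dimmer H2-DMa probe set gave 142 and 141 units in liver, against 74.9 and 81.6 units in distal colon, below the floor. For H2-Aa, the alpha chain of the I-A molecule, the spleen gave 24109 units at 28 months and 24056 units at 4 months. The gut arrays gave 6267 to 10788 units, and the liver 2224 units at 28 months and 2314 units at 4 months. No array of 1 organ reached into the range of another. H2-Ab1, the I-A beta chain, gave 13198 units in spleen at 28 months and 14865 units at 4 months, 3971 to 6998 units in the gut, and 1028 and 928 units in liver. H2-Eb1, the I-E beta chain, gave 16389 and 17105 units in spleen, 3037 to 5474 units in the gut, and 892 and 1054 units in liver at 28 and 4 months. These pairs again kept apart by organ, while within the gut the segments mostly overlapped.

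**Figure D1:**
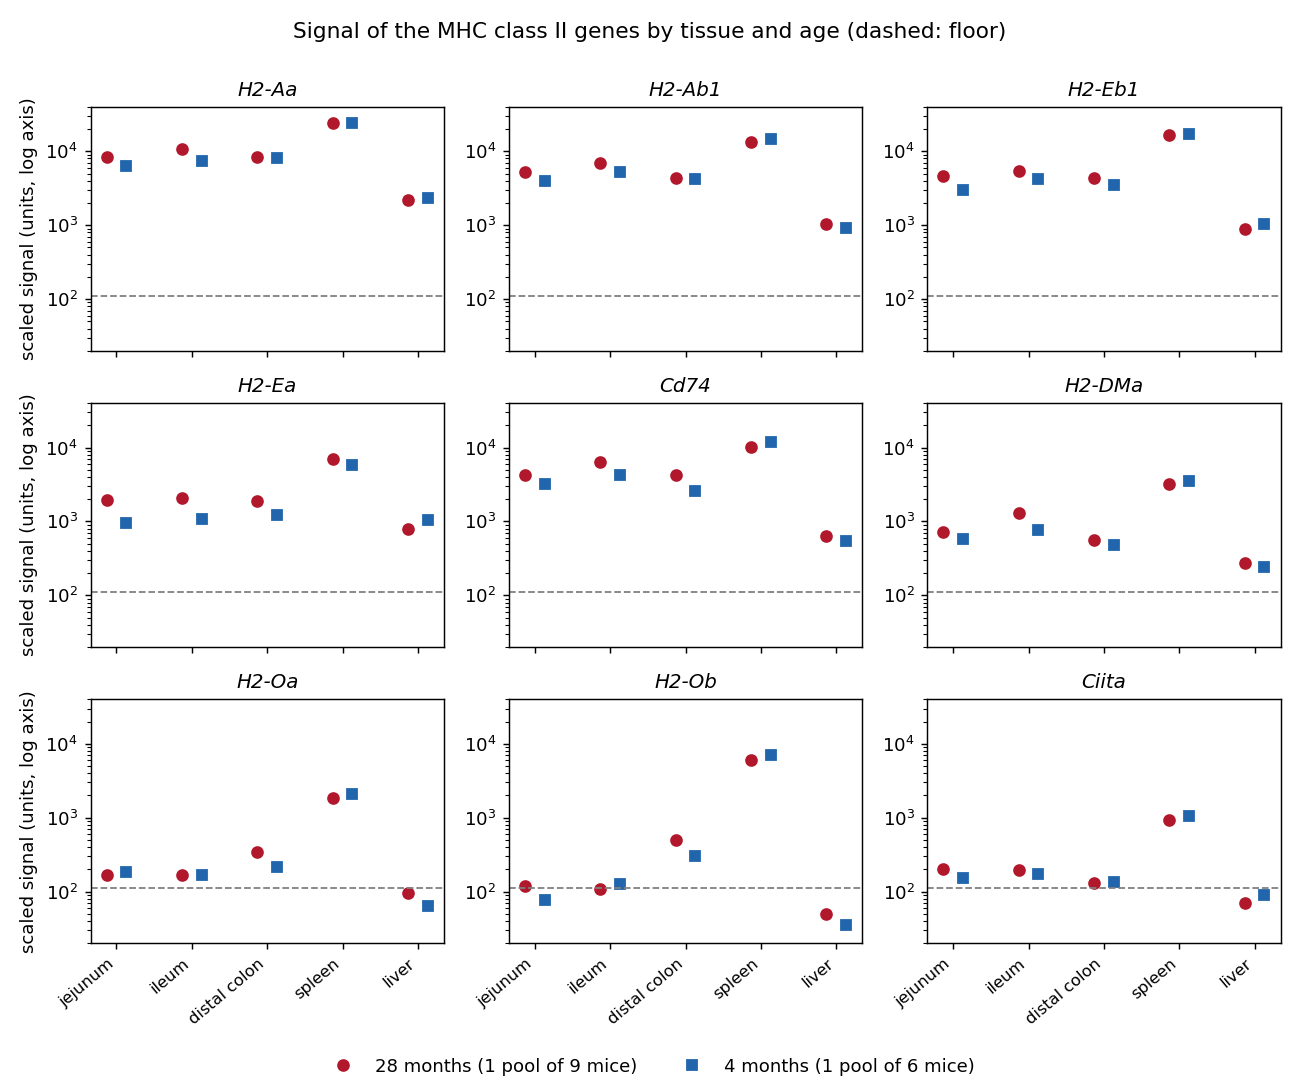
Scaled signal (log axis, units) of the 9 MHC class II genes on each of the 10 arrays, with tissues along the horizontal axis, red circles for 28 months and blue squares for 4 months; each point is 1 pool on 1 array and the dashed line is the floor of 111 units. Spleen points lie highest in every panel, H2-Oa, H2-Ob and Ciita lie below the floor in liver, and H2-Ob is near the floor in jejunum and ileum.

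In the order of levels, the ileum came next after the spleen for H2-Aa, H2-Ab1, H2-Eb1, H2-Ea, H2-DMa, Cd74 and Ciita. By the brightest probe sets of H2-Ab1 and H2-DMa the ileum lay clear of the next segment at both ages. The dimmer H2-DMa probe set had another order, with 159 and 207 units in ileum against 238 and 297 units in jejunum at 28 and 4 months. For H2-Aa, H2-Eb1, H2-Ea, Cd74 and Ciita the ileum overlapped its neighbour, so that order is within the spread of the 2 ages. H2-Oa and H2-Ob, the chains of H2-O, had another order, with the distal colon second and clear of the other segments. H2-Ob gave 6077 units in spleen at 28 months and 6997 units at 4 months, against 502 and 304 units in distal colon, 107 and 126 units in ileum and 118 and 77.5 units in jejunum. H2-Oa gave 1838 and 2091 units in spleen, against 344 and 213 units in distal colon and 168 to 186 units in the other 2 segments. In the small intestine H2-Ob was thus at or near the floor, which the classical chains cleared on every array.

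A fit over all genes on the 10 arrays tested these tissue differences, with tissue and age as terms (limma, Benjamini-Hochberg adjustment). The 2 ages of a tissue are separate pools of mice, and tissues of 1 age come from the same mice. All 9 genes were higher in spleen than in the mean of the gut segments, where 34.2% of all 13608 genes tested were called higher. The differences were 1.46 ± 0.18 for Cd74, 1.51 ± 0.13 for H2-Ab1 and 1.57 ± 0.14 for H2-Aa on the log2 scale (SE), the 3 smallest. H2-Ob had the largest, 5.32 ± 0.21, followed by H2-Oa at 3.29 ± 0.20 and Ciita at 2.61 ± 0.15. For H2-Ob 2 of the 6 gut arrays lay below the floor, and with floored signals the difference was 5.23. The highest limma adjusted p among the 9 was 0.000203.

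Between liver and gut 8 of 9 genes were lower in liver, where 37.3% of all genes were called lower. Cd74 was 6.71-fold lower in liver than in the gut, H2-Ab1 5.02-fold, H2-Eb1 4.26-fold, H2-Aa 3.58-fold and H2-DMa, a chain of the peptide exchange factor, 2.69-fold, with limma adjusted p of 0.000141 or less. H2-Ea, the I-E alpha chain, differed by -0.68 on the log2 scale with a 95% interval of -1.29 to -0.06 and a limma adjusted p of 0.0536. With the median over its probe sets the H2-Ea difference was -1.39. The member probe sets of H2-Oa, H2-Ob and Ciita were below the floor on both liver arrays, so no exact fold can be given. The gut mean was at least 1.82-fold higher than liver for H2-Oa and 1.47-fold for Ciita. For H2-Ob it was 1.57-fold with signals below the floor set to it, and 4 of 6 gut arrays lay above the floor. Because gut signals were raised as well, this H2-Ob value is not a strict bound. Spleen exceeded liver in all 9 genes, where 36.5% of all genes were called higher, by 2.80 ± 0.32 for H2-Ea to 4.21 ± 0.22 for Cd74 on the log2 scale (SE) among the 6 genes measured in liver. For the other 3, spleen was at least 58.9-fold (H2-Ob), 17.7-fold (H2-Oa) and 9.01-fold (Ciita) higher than liver. A probe set that names H2-Ob together with Gm20506, and so is no member, showed a far smaller range, with 279 and 328 units in spleen against 111 and 128 units in liver at 28 and 4 months. In whole tissue, more cells of a type and more RNA per cell cannot be told apart.

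**Figure D2:**
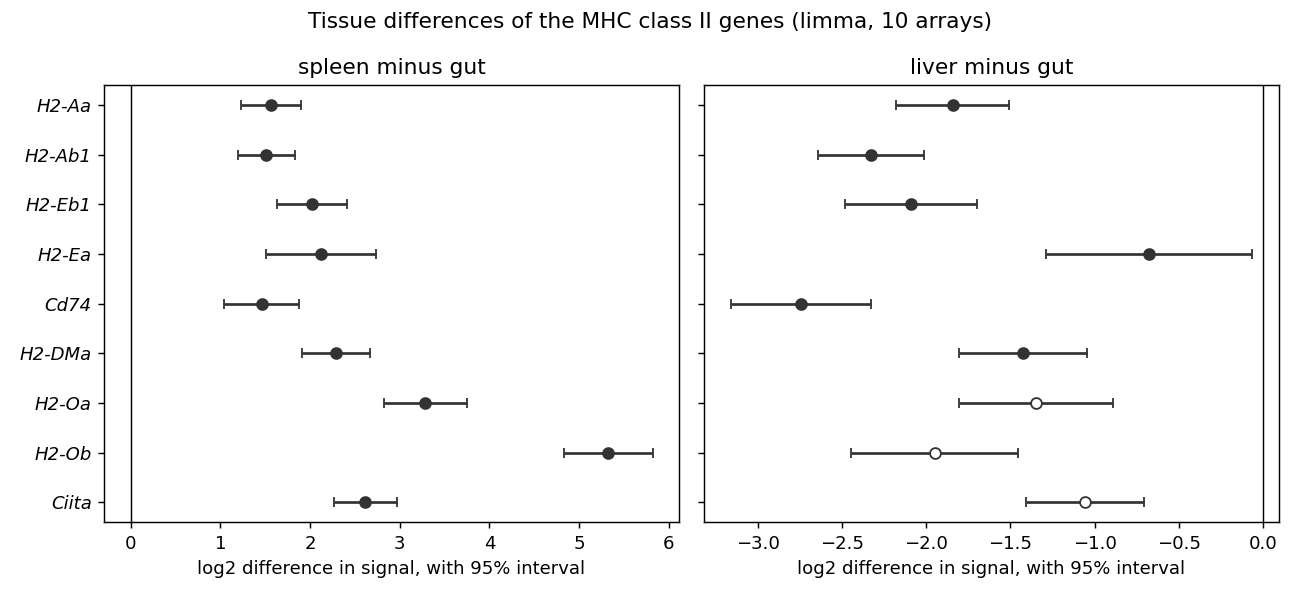
Log2 difference in signal of each gene from the limma fit on 10 arrays. It is spleen minus the mean of 3 gut segments (left) and liver minus that mean (right). Points are estimates and bars 95% intervals. Open points mark genes below the floor on both liver arrays, for which the text gives bounds or, for H2-Ob, a floored value. Every left-hand interval lies above 0 and every right-hand interval below 0, with H2-Ea nearest to 0 in liver.

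The second comparison was between the ages, and here gut and spleen had ratios on different sides of 0. Of 9 measured members, 8 were above 0 in jejunum, 7 in ileum and 8 in distal colon at 28 over 4 months, against 55.9%, 53.9% and 55.4% of all genes measured there. In spleen 2 of 9 were above 0, against 51.9% of all genes, and in liver 3 of 6, against 46.7%. The members' log2 ratios had their highest median, 0.42, in ileum, then 0.40 in jejunum and 0.36 in distal colon, and it was 0.04 in liver and -0.17 in spleen. The medians of all genes measured lay between -0.01 and 0.03. With 1 array per tissue and age no ratio could be tested within a tissue. As a guide to error, probe sets that read the same gene differed in their log2 ratio by a median SD of 0.11 to 0.14, depending on the tissue, and this covers neither mice nor arrays.

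**Figure D3:**
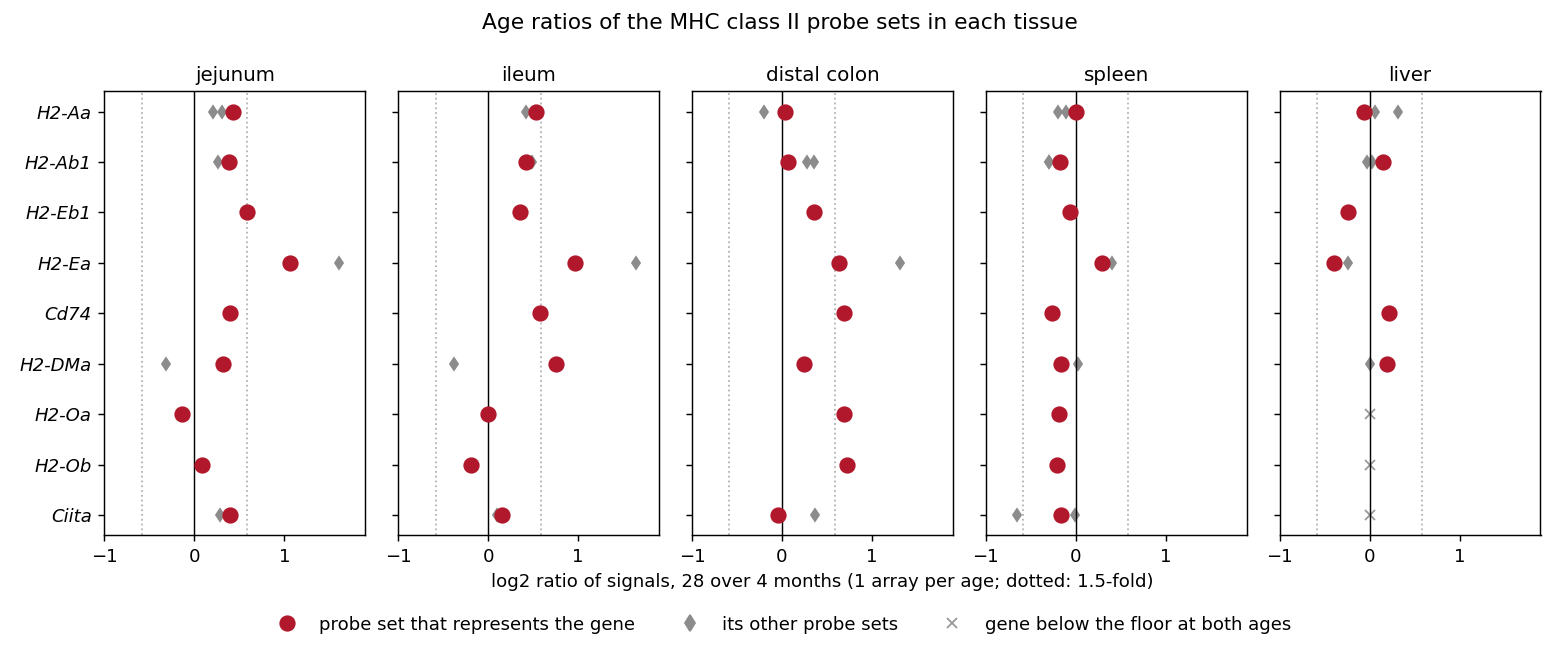
Log2 ratio of signals, 28 over 4 months, for each gene (rows) in each tissue (panels), with 1 array per age; red circles are the probe set with the highest mean signal, grey diamonds the gene's other measured probe sets, crosses genes below the floor at both ages, and dotted lines 1.5-fold. Most points lie right of 0 in the gut panels and left of 0 in spleen, H2-Ea is farthest right in jejunum and ileum, and H2-Oa and H2-Ob are right of 1.5-fold in distal colon only.

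Among the classical chains, H2-Ea had the largest gut ratios. Its brightest probe set gave 1970, 2095 and 1901 units in jejunum, ileum and distal colon at 28 months, against 941, 1072 and 1228 units at 4 months. These are 2.09-, 1.95- and 1.55-fold higher at 28 months, and the 3 gut values of 28 months lay above all 3 of 4 months. In spleen it gave 7051 units at 28 months against 5740 units at 4 months, and in liver 797 against 1049 units. A second H2-Ea probe set gave 1280, 1318 and 1072 units in the 3 segments at 28 months against 419, 421 and 432 units at 4 months, which is 3.06-, 3.13- and 2.48-fold. The remaining H2-Ea probe set stayed at 21.3 to 25.45 units on all 10 arrays, far below the floor. The C57BL/6J reference annotates H2-Ea as a transcribed pseudogene, and inbred strains are known to differ in whether they make this chain. The labels give no MHC haplotype for these outbred mice, and any part of allele differences between the pools in the H2-Ea ratios was not tested.

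H2-Eb1, the partner of H2-Ea, gave 4563, 5474 and 4418 units in jejunum, ileum and distal colon at 28 months against 3037, 4277 and 3447 units at 4 months. Its ratios were 1.503-, 1.28- and 1.28-fold, smaller than those of H2-Ea in each segment, and both genes were lower at 28 months in liver. H2-Aa gave 8441, 10788 and 8329 units in the gut at 28 months against 6267, 7451 and 8134 units at 4 months. H2-Ab1 gave 5183, 6998 and 4392 units at 28 months against 3971, 5239 and 4195 units at 4 months. Both I-A chains were thus higher in jejunum and ileum, by 0.38 to 0.53 on the log2 scale, and stood at 0.03 and 0.07 in distal colon. In distal colon the other probe sets of H2-Aa ran from -0.20 to 0.05 and those of H2-Ab1 from 0.28 to 0.35, so the probe sets disagreed there by more than the ratio itself.

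Cd74, the invariant chain, gave 4291, 6294 and 4191 units in jejunum, ileum and distal colon at 28 months, against 3258, 4207 and 2609 units at 4 months. It was 1.32-, 1.496- and 1.61-fold higher at 28 months in the 3 segments, and 1.20-fold lower in spleen, with 10057 units at 28 months against 12034 units at 4 months. In liver it gave 642 against 552 units. Its 28-month gut values did not all exceed those of 4 months, since the ileum of 4 months lay at the level of the 28-month distal colon.

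H2-DM and its inhibitor H2-O differed in which segment they stood out. H2-DMa gave 717, 1289 and 563 units in jejunum, ileum and distal colon at 28 months, against 573, 767 and 474 units at 4 months, and its highest ratio was 1.68-fold in ileum. The dimmer H2-DMa probe set went the other way in jejunum and ileum, at -0.32 and -0.38 on the log2 scale, and the median over both was 0.00 in jejunum and 0.18 in ileum. H2-Oa was 1.62-fold and H2-Ob 1.65-fold higher at 28 months in distal colon, with the values given above. The probe set shared by H2-Ob and Gm20506 gave 133 units there at 28 months against 114 units at 4 months, close to the floor. In ileum H2-Oa stood at -0.01 and H2-Ob at -0.19, and in spleen at -0.19 and -0.20. The ileal H2-Ob ratio is an upper bound, since its signal of 107 units at 28 months was below the floor. In jejunum H2-Ob was above the floor at 28 months only, so its ratio there is a bound of at least 1.06-fold. With the main floor both H2-O chains thus passed 1.5-fold in the gut segment where their signal was highest. With the floor at percentile 25 H2-Ob stood at 0.60 on the log2 scale in jejunum and so passed 1.5-fold there as well.

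H2-DMb1 could be read only together with H2-DMb2, a second gene for the H2-DM beta chain. The brighter shared probe set gave 713, 1306 and 766 units in jejunum, ileum and distal colon at 28 months, against 543, 720 and 616 units at 4 months. The brightest of the 3 probe sets that name H2-DMb2 alone gave 310, 282 and 724 units at 28 months, against 267, 376 and 482 units at 4 months. In ileum the 2 shared probe sets had log2 ratios of 0.86 and 0.70, while the 3 of H2-DMb2 alone had -0.42, -0.37 and -0.07. In distal colon the order was turned, with 0.31 and 0.02 for the shared probe sets against 0.59, 0.73 and 1.02 for H2-DMb2 alone. The shared probe sets followed H2-DMa in ileum, and those of H2-DMb2 alone followed H2-Oa and H2-Ob in distal colon. These patterns were picked out after the values were seen, and the signal of H2-DMb1 by itself was not analysed here.

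**Figure D4:**
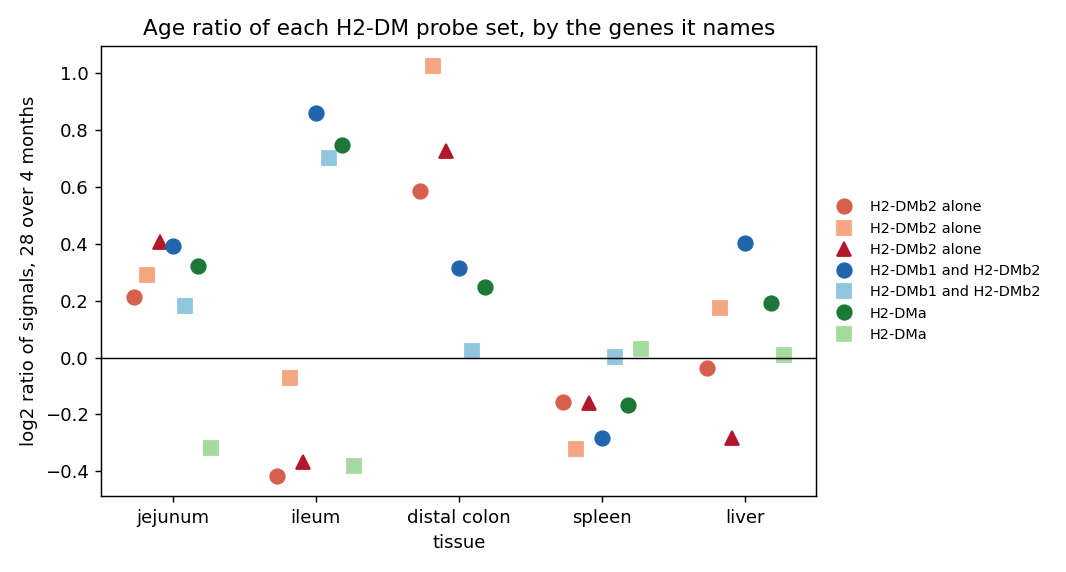
Log2 ratio of signals, 28 over 4 months (vertical axis), of each probe set for the H2-DM chains in each tissue (horizontal axis), with 1 array per age; colours and shapes mark single probe sets, by the genes they name, and those below the floor at both ages are left out. In ileum the shared H2-DMb1 and H2-DMb2 probe sets are at 0.86 and 0.70 and those of H2-DMb2 alone below 0, while in distal colon those of H2-DMb2 alone are at 0.59 to 1.02.

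Ciita, the co-activator of class II genes, had low signals, and small ratios by its brightest probe set. Its brightest probe set gave 202, 194 and 132 units in jejunum, ileum and distal colon at 28 months, against 153, 174 and 135 units at 4 months, and 942 against 1056 units in spleen. Its log2 ratio was highest in jejunum at 0.40, and stood at 0.16 in ileum, at -0.04 in distal colon and at -0.16 in spleen. The other Ciita probe sets stood at -0.005 and -0.66 in spleen. In distal colon a second probe set gave 143 units at 28 months against 96.6 units, below the floor, at 4 months, so the direction there depends on the probe set.

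By size, 2 of 9 members were 1.5-fold or more higher at 28 months in jejunum (H2-Eb1 and H2-Ea), 2 in ileum (H2-Ea and H2-DMa) and 4 in distal colon (H2-Ea, H2-Oa, H2-Ob and Cd74). The share of all measured genes past that fold was 2.01% in jejunum, 5.22% in ileum and 2.57% in distal colon. In spleen and liver 0 members were 1.5-fold higher, where 3.19% and 4% of all genes were. By the brightest probe sets 0 members were 1.5-fold lower in any of the 5 tissues. The share of all genes past that fold was 4.17% in ileum, 3.04% in jejunum, 2.35% in distal colon, 1.95% in spleen and 0.8% in liver. A dimmer Ciita probe set was past it in spleen, with 163 units at 28 months against 258 units at 4 months. Read by the brightest probe sets, 1 member was 2-fold or more higher, H2-Ea in jejunum, while its second probe set also passed 2-fold in ileum and distal colon. The share of all genes past that fold was 0.252% there, 0.51% in distal colon, 0.528% in spleen, 0.888% in ileum and 1.29% in liver. Counted over probe sets, 14 of 16 measured member probe sets were above 0 in jejunum, 13 of 16 in ileum, 13 of 15 in distal colon, 5 of 18 in spleen and 7 of 12 in liver. Probe sets of 1 gene share their transcript and are not independent. The share over all probe sets was not computed, so these probe set counts have no background and are read as description only.

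The age effect was then tested across tissues, with tissue as a block, so that tissues stand in for replicates although pools of 1 age hold the same mice. Over the 5 tissues 0 of 9 members passed a limma adjusted p of 0.05, and 0% of 13608 genes were called in either direction. The largest estimate was 0.51 ± 0.20 for H2-Ea on the log2 scale (SE, limma adjusted p = 0.638), followed by 0.32 ± 0.14 for Cd74 (0.649). At an unadjusted p under 0.05, 2 of 9 members and 7.66% of all genes passed. In the gut alone, where each of the 3 segments gives 1 ratio, all 9 estimates were above 0, as were 56.2% of all genes, and ran from 0.17 ± 0.13 for Ciita to 0.89 ± 0.13 for H2-Ea, with Cd74 at 0.55 ± 0.11, H2-DMa at 0.44 ± 0.14 and H2-Eb1 at 0.43 ± 0.11 (SE). The limma adjusted p of the 9 lay between 0.597 and 0.786, and 0% of all genes were called. At an unadjusted p under 0.05, 4 of 9 members and 8.08% of all genes passed. This gut comparison was added after the data were seen.

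Whether the age ratio itself differed between organs was tested in the same way. The spleen ratio minus the gut ratio was below 0 for all 9 members and for 50.8% of all genes. In the members it ran from -0.33 for H2-Aa to -0.81 ± 0.22 for Cd74 (SE), and the limma adjusted p was 0.714 or higher, with 0.125% of all genes called lower and 0% higher. At an unadjusted p under 0.05, 1 of 9 members and 6.83% of all genes passed. The liver ratio minus the gut ratio was -1.28 ± 0.25 for H2-Ea (SE, limma adjusted p = 0.578), and 0 of 9 members were called, as against 0.0514% of all genes called higher and 0.00735% lower. The single spleen and liver pairs were assumed to vary like the gut segments. This test has little power with so few arrays, and its p-values do not show that the organs were alike. The contrast of gut and spleen is therefore a description of these arrays, and a difference between the organs was not shown by test.

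Genes around the pathway were read from lists of its helpers. Of the antigen processing list, which holds the proteases and other enzymes of the class II compartment, 2 of 10 measured genes were above 0 in jejunum, 6 of 10 in ileum, 4 of 11 in distal colon, 5 of 11 in spleen and 10 of 11 in liver. Their medians were -0.07, 0.04, -0.01, -0.04 and 0.17 in that order. Ctss, the protease that trims Cd74, gave 9120 units in ileum at 28 months against 8349 units at 4 months, and 4749 against 2350 units in liver. Lgmn, an endosomal protease, gave 874 units in distal colon at 28 months against 1546 units at 4 months. Ifi30, which reduces disulphide bonds of antigens, gave 4481 against 6579 units in ileum. Marchf8, a ubiquitin ligase, gave 2644 units in spleen at 28 months against 1956 units at 4 months. The processing enzymes thus had gut medians near 0, and their highest median was in liver.

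Of the transcriptional regulators of class II genes, 10 of 13 were above 0 in jejunum, 7 of 13 in ileum, 9 of 13 in distal colon, 3 of 14 in spleen and 6 of 10 in liver. Irf4, a factor of B and plasma cells, gave 414 units in jejunum at 28 months against 176 units at 4 months, and 250 against 119 units in distal colon. Spib, a factor of B cells and of gut M cells, gave 467 against 242 units in distal colon and 135 against 197 units in ileum. Irf8, a factor of myeloid and B cells, gave 360 against 223 units in liver, and Prdm1, a plasma cell factor that represses Ciita, 489 against 322 units in jejunum. The interferon gamma list, whose product induces Ciita, had 2 of 11 measured genes above 0 in jejunum, 5 of 11 in ileum and 2 of 11 in distal colon, with medians of -0.20, -0.08 and -0.11. Ifng itself was below the floor in all 3 segments and in liver. Cxcl9, a chemokine induced by interferon gamma, gave 164 units in ileum at 28 months against 334 units at 4 months, and 184 against 113 units in distal colon. Ido1, an enzyme of tryptophan breakdown, gave 321 against 646 units in jejunum, Gbp2, a guanylate-binding protein, 1262 against 2090 units in distal colon, and the chemokine Cxcl10 160 against 225 units in liver. Of the co-presentation list, which holds co-stimulatory molecules and their regulators, 4 of 5 were above 0 in jejunum, 1 of 4 in ileum, 4 of 5 in distal colon, 0 of 6 in spleen and 3 of 4 in liver. Cd40, a receptor through which T cells signal to B cells, gave 888 units in spleen at 28 months against 1233 units at 4 months, and the chemokine receptor Ccr7 762 against 1231 units. Cd83 gave 200 against 132 units in liver, and Cd274, the ligand PD-L1, 115 against 170 units in ileum.

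Markers of cells that can carry class II had ratios above 0 beside the class II genes in some tissues and not in others. In distal colon all 10 measured B cell markers were above 0, with a median of 0.92. The summed signal of that list was 4823 units at 28 months against 2426 units at 4 months. Such sums include list genes below the floor and follow the brightest genes, since a unit does not compare between probe sets. They are a description of the arrays and no measure of cell number. Ms4a1, the B cell protein CD20, gave 978 units in distal colon at 28 months against 343 units at 4 months. In ileum 1 of 7 was above 0 and the sum was 1267 against 1670 units, in jejunum 5 of 6 with 1655 against 1421 units, and in spleen 0 of 11 with 47928 against 60881 units. Fcer2a, Cr2, Pax5 and Fcmr were below the floor in jejunum and ileum, and Pax5 in distal colon.

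Dendritic cell markers were above 0 in 0 of 5 in jejunum, 0 of 5 in ileum and 1 of 5 in distal colon, with medians of -0.21, -0.25 and -0.14, and in 2 of 8 in spleen with a median of -0.59. Zbtb46, Xcr1 and Ccr7 of that list were below the floor in the gut, and its sum in spleen was 3685 units at 28 months against 4991 units at 4 months. Macrophage markers were above 0 in 9 of 10 in jejunum (median 0.34), 6 of 10 in ileum (0.02), 5 of 10 in distal colon (-0.03), 7 of 11 in spleen (0.08) and 10 of 11 in liver (0.93). Their sum in jejunum was 19857 units at 28 months against 14728 units at 4 months, and in liver 22669 against 12783 units. Lyz2 alone gave 9293 against 6078 units in jejunum. T cell markers were above 0 in 4 of 6 in jejunum (median 0.07), 1 of 6 in ileum (-0.24), 5 of 5 in distal colon (1.17), 4 of 8 in spleen (0.01) and 2 of 3 in liver (0.24). Their sum was 1934 units in distal colon at 28 months against 1043 units at 4 months, and 1739 against 1648 units in ileum. Il7r was the 1 T cell marker above 0 in ileum, with 619 against 281 units. Plasma cell markers, which belong to antibody-secreting cells, were all 8 above 0 in jejunum (median 0.42), distal colon (0.40) and spleen (0.34), and 5 of 8 in ileum (0.05). The 3 measured genes of the list for lymphoid follicle stroma were Cxcl13, Madcam1 and Ltb, of which Ltb is made by lymphocytes. They summed to 9291 units in distal colon at 28 months against 3330 units at 4 months, and to 1356 against 1123 units in ileum. Cxcl13 alone gave 7984 against 2685 units in distal colon. Intestinal epithelium markers were above 0 in 1 of 8 in jejunum, 4 of 8 in ileum and 3 of 8 in distal colon, with medians of -0.18, 0.04 and -0.09. The part of any of these cells in the class II ratios was not tested.

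**Figure D5:**
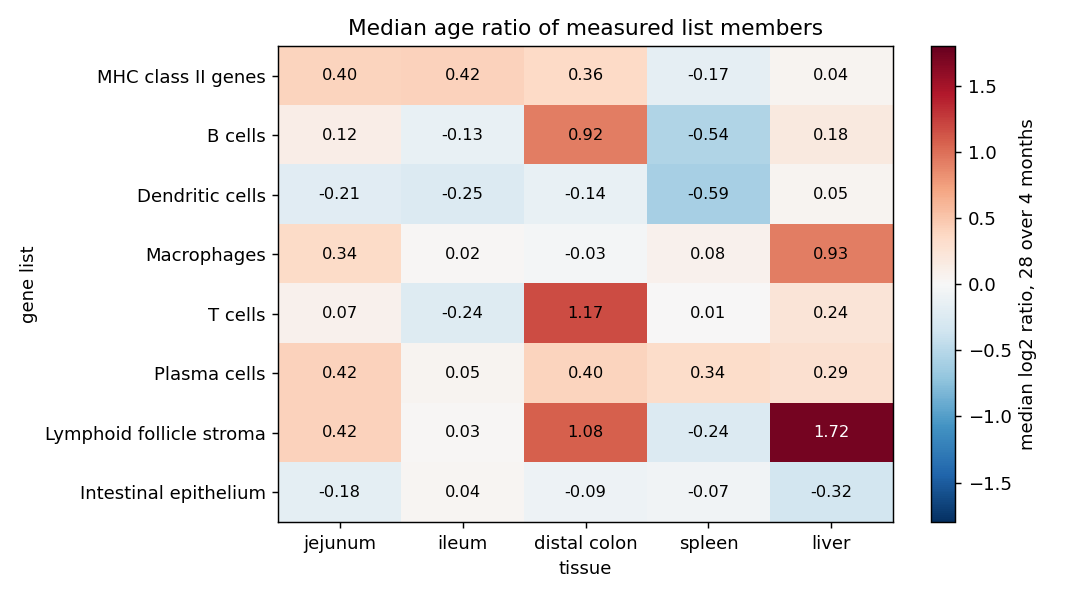
Median log2 ratio of signals, 28 over 4 months, of the measured members of each gene list (rows) in each tissue (columns), with 1 array per age; colour and printed value give the median. In distal colon the MHC class II genes at 0.36 stand beside B cells at 0.92 and T cells at 1.17, while in ileum they are at 0.42 beside B cells at -0.13, dendritic cells at -0.25 and macrophages at 0.02.

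Within a list the markers did not all go one way. In ileum, where H2-Aa, H2-Ab1, H2-Ea, H2-DMa and Cd74 were 1.34- to 1.95-fold higher at 28 months by their brightest probe sets, the macrophage marker Mrc1 gave 576 units at 28 months against 326 units at 4 months and Csf1r 3023 against 3700 units. The T cell list had a median below 0 there, yet Il7r gave 619 against 281 units. The epithelial factor Cdx2 gave 2885 against 1924 units, and Krt20 16734 against 21813 units. In distal colon H2-Ea, H2-Oa, H2-Ob, Cd74 and H2-DMb2 were higher at 28 months on an array with higher B cell and T cell markers. In liver the macrophage median was 0.93, and Clec4f, Vsig4 and Cd5l, markers of Kupffer cells, gave 2211, 3844 and 5185 units at 28 months against 1208, 1989 and 2594 units at 4 months. Over the same liver arrays the log2 ratio was 0.22 for Cd74, 0.19 for H2-DMa, 0.15 for H2-Ab1, -0.06 for H2-Aa, -0.24 for H2-Eb1 and -0.40 for H2-Ea. Other H2-Aa probe sets stood at 0.07 and 0.32 in liver, so its direction there depends on the probe set, and the brighter probe set shared by H2-DMb1 and H2-DMb2 stood at 0.40. These markers were picked out after their values were seen.

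The pattern of H2-Aa, H2-Ab1, H2-Eb1 and Cd74 over the 10 arrays was compared with that of every gene of sufficient signal and range, 9016 in all. The highest Pearson correlations outside the pathway were 0.989 for Tpm3, 0.989 for Ptk2b, 0.988 for Ier5 and 0.988 for Ppp2r2a. Among members left out of that mean, H2-DMa reached 0.946, Ciita 0.898, H2-Oa 0.872, H2-Ea 0.850 and H2-Ob 0.839. The 10 points share 5 tissues, so these values follow the order of spleen, gut and liver, and many genes share that order. Tpm3, a tropomyosin, shows this, with ratios of 0.04 to 0.11 on the log2 scale in the 3 gut segments.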

How the data were processed

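The deposited values are log2 signals, 1 per probe set and array, normalised by the authors by a method the labels do not name. The submitters' processing notes name MAS5 and affy without version or role. Base 2 was inferred from the range, 2.71 to 14.76. Signals were taken out of the log, scaled per array to a trimmed mean of 500 (2% off each end) and floored at 111 units, percentile 50 of all signals. Of 45101 probe sets, 34958 named 1 gene, 932 several and 9211 none in the probe annotation. A gene was read by its probe set of highest mean signal and counted as measured in a tissue when above the floor at either age. limma used log2 signals without floor for genes above it on at least 2 arrays.

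The members, gene lists and tests were chosen with earlier results of these data known. All members were named, and of each pathway list up to 4 genes with the largest ratios in any tissue; Ifng and the cell markers named were picked after their values were seen. Each array is 1 pool, and no pool of a tissue and age was repeated. The p-values rest on how the age ratio varies between tissues, or between gut segments, with array noise. They measure no spread between mice or between repeated pools. The fits were tested on simulated data of 13608 genes, with noise drawn independently for each array. The age fit over 5 tissues found 85.5% of 200 genes changed by 1 on the log2 scale in every tissue, with 6 false calls. In the real data tissues of 1 age share mice and the largest member estimate was 0.51, so 85.5% does not give the power for the members. The fit of the liver minus gut age ratio found 0% of 200 genes changed by 2. Detection calls were not used here. The number of arrays limits the precision. Alternatives are in the closing section. Python 3.11.15, numpy 2.4.6, pandas 2.3.3, matplotlib 3.10.9, R 4.3.3 and limma 3.58.1 were used.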

Additional observations from a re-analysis of the deposited data

How the results depend on the processing

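Counts of members called in the tissue contrasts and for age were within 1.5 times of those given, with 1 exception, under floored signals, quantile normalisation, no filter, a variance trend, the median over probe sets, probe sets that read 1 transcript only, and each tissue left out where the comparison does not need it. The count for a difference in age ratio was 0 under the same settings. The exception was 5 members lower in liver than in gut with single-transcript probe sets, where 6 had one. H2-Aa, H2-Ab1 and Cd74 had none, so all values of these genes rest on probe sets that can read several transcripts. The limma adjusted p of H2-Ea in liver against gut was 0.0438 with the trend and 0.0101 with the median over probe sets, past the threshold in both. Without the replicate block, that is without tissue in the age fit, 0 members were called for age, and without age in the tissue fits 9, 8 and 9 were called, so the block changed no call. Each gut median stayed above 0, but it was 0.56 in ileum with the floor at percentile 75, 0.26 in jejunum with the median over probe sets, and 0.23 in ileum and 0.50 in distal colon with single-transcript probe sets. The liver median was -0.24 with the last. The count 1.5-fold higher was 1 in jejunum with 16 units added in place of the floor or with equal medians, 1 in ileum with the median over probe sets, 2 in distal colon with the floor at percentile 75, and 1 in liver with the floor at percentile 25. With that last floor the count in jejunum was 3, and H2-Ob stood at 0.60 there on the log2 scale. The Ciita age estimate over 5 tissues, close to 0, turned to 0.070 with floored signals, 0.0063 with quantile normalisation, 0.094 with the median over probe sets and 0.16 with single-transcript probe sets, and ran from -0.10 to 0.088 as tissues were left out. The liver minus gut age ratio turned to -0.18 for H2-Oa and -0.21 for H2-Ob with floored signals and to 0.019 for H2-DMa with the median over probe sets, and that of H2-Ob ran from -0.15 without ileum to 0.33 without distal colon. The gut age estimate of H2-Oa ran from -0.074 without distal colon to 0.34 without jejunum. With the median over probe sets the H2-Ea ratio was that of its second probe set, 1.61, 1.65 and 1.31 in jejunum, ileum and distal colon, and its gut age estimate 1.52 (limma adjusted p = 0.248). The cause of these shifts was not tested. Signal near the floor limits H2-Oa, H2-Ob and Ciita outside spleen.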
